A study of Mus musculus with 8 samples.

Results

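The serotonin response of wild-type (WT) alveolar macrophages was read from 4 of the 8 arrays of the study, chosen by sample titles that begin with WT. Alveolar macrophages reside on the inner surface of the lung's air sacs, where they engulf and clear particles and microbes and release cytokines and chemokines. Serotonin, best known as a neurotransmitter, is carried in blood platelets and released when they are activated, and it acts on immune cells through a family of mostly G protein-coupled receptors. One of these, 5-HT2C, couples to phospholipase C and calcium release, and cells that lack it made up the other 4 arrays (KO).

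Both genotypes were of strain C57BL6N, and no treatment other than serotonin was named. Macrophages were kept in RPMI medium with dialysed serum and were stimulated with serotonin at 10 µM over 4 h, beside unstimulated cells. Both RNAs of a replicate, from stimulated and from unstimulated WT cells, were hybridised to one 2-colour array, on which each RNA carries its own fluorescent dye and the measurement is the ratio of the dyes. Stimulated RNA was in Cy5 on WT replicates 1 and 2 and in Cy3 on WT replicates 3 and 4. In KO it was in Cy3 on replicates 1 and 2 and in Cy5 on replicates 3 and 4. The labels call the arrays biological replicates and say nothing of animals, age, sex or pooling. The p-values below therefore rest on the spread between these arrays, in most fits only between arrays of one dye.

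The deposited values are log ratios for 44290 numbered rows, taken as log2. No gene is named, since the numbering of the rows could not be matched to the available probe table. In a matching table, rows of one gene symbol would resemble each other. Over 8164 symbols with several rows, the first and last row had a Pearson r of 0.0084 for the WT ratio. The identity of the cells could not be checked by their markers either, and pathways could not be described. Rows are therefore given by their number.

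Which dye each RNA carried is stated in the labels. Whether the deposited value divides Cy5 by Cy3, or stimulated by unstimulated, is not. Both readings are therefore given. Turned ratios take the values as Cy5 over Cy3 and change the sign on replicates 3 and 4. The other reading uses the values as deposited. A positive value means more RNA in stimulated cells only if its reading is the right one.

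Values were missing on every WT array. Replicate 2 had the most rows without a value (6769), followed by replicate 1 (3154), replicate 4 (1982) and replicate 3 (1085). The WT arrays with stimulated RNA in Cy5 thus had more gaps than those with it in Cy3. In 1745 rows both Cy5 arrays lacked a value and both Cy3 arrays had one, and in 47 rows it was the other way round. In KO the dyes went the other way, with 10843 and 1608 gaps on the Cy3 arrays and 473 and 502 on the Cy5 arrays. Replicates 1 and 2 had more gaps in both genotypes, and within WT dye and replicate pair cannot be told apart. All 4 values were present in 34893 rows, and the 41595 rows with at least 3 were tested. The SD over rows was between 0.148 and 0.159 on the 4 arrays, so a typical row lay close to a ratio of 1.

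WT arrays resembled each other by dye. As deposited, replicates 1 and 2 had a Pearson r of 0.633 across 36588 rows, and replicates 3 and 4 one of 0.542 across 41692 rows. Between arrays of opposite dyes r was below 0 in all 4 pairs. It was -0.383 for replicates 1 and 3, -0.300 for 1 and 4, -0.383 for 2 and 3 and -0.244 for 2 and 4. These r describe the arrays over rows, which share probe, array and normalisation. Among rows with 4 values, 31.7% had one sign on all 4 turned ratios (5398 positive, 5650 negative), against 11.4% as deposited (2003 positive, 1983 negative).

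**Figure D1:**
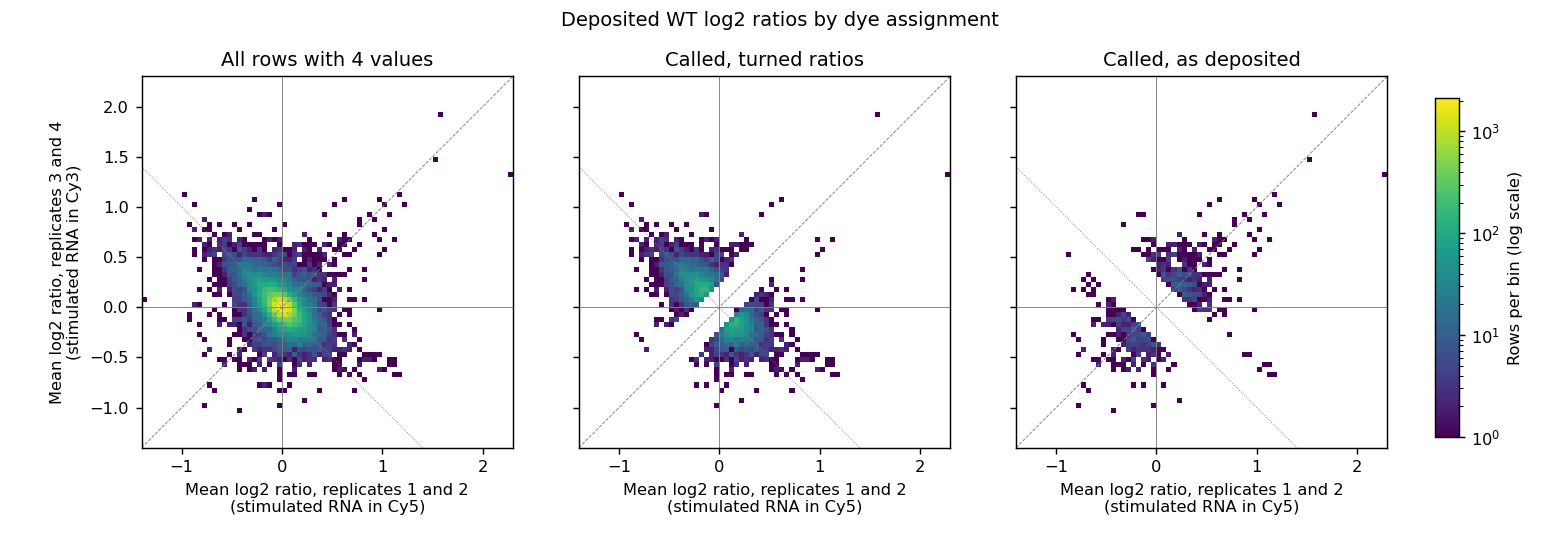
Mean deposited log2 ratio of WT replicates 1 and 2 (x axis, stimulated RNA in Cy5) against that of replicates 3 and 4 (y axis, stimulated RNA in Cy3), for rows with 4 values in bins 0.05 wide, with colour for the number of rows per bin on a log scale. The left panel shows all 34893 such rows, leaning along the dotted line of opposite signs, with a thin tail of rows positive on both axes, and the other panels show the rows called in each reading.

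With turned ratios, 5849 rows differed from 0, which is 14.1% of the 41595 rows tested (limma, Benjamini-Hochberg threshold 0.05). Positive ratios numbered 2574 (6.19% of rows tested) and negative ones 3275 (7.87%). Their size was small: the called ratios had a median of 0.21 in size (log2 scale; interquartile range 0.17 to 0.28), or 1.16-fold. Only 197 exceeded 0.5, of which 59 were positive and 138 negative, and 1 exceeded 1. Of the 5432 called rows with 4 values, 4855 (89.4%) had one sign on all 4 turned arrays, which the call itself favours.

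This fit has a dye term, so its spread comes only from the difference between arrays of one dye, replicate 1 against 2 and 3 against 4. Without the dye term, when arrays of opposite dyes also enter the spread, 3456 rows passed. Without WT replicate 1 the count was 2693 (7.53% of the rows then tested) and without WT replicate 2 it was 3062 (7.83%). It was 5571 (15.7%) without replicate 3 and 5972 (16.6%) without replicate 4, both higher shares than the 14.1% with all 4 arrays. With ordinary least squares, which takes each row's spread from that row alone, 0 rows passed (smallest adjusted p = 0.056), and 6500 had an unadjusted p under 0.05. The calls therefore rest on limma's pooling of the spread over rows.

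The 4 rows described at length in each reading were chosen among called rows with values of one sign, in that reading, on all 4 WT arrays. The most negative turned ratio belonged to row 28310. Its deposited log2 values were -0.85 and -1.15 on replicates 1 and 2, and 1.25 and 1.01 on replicates 3 and 4. The sign changed with the dye on every array, and the arrays of one dye lay far from those of the other. Its turned mean was -1.06 ± 0.18 (SD, n = 4; limma adjusted p = 4.4e-05), a 2.09-fold difference.

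Row 25774 had the same pattern at a slightly smaller size. Its deposited values were -0.76 and -0.99 on replicates 1 and 2, and 1.16 and 0.90 on replicates 3 and 4. The turned mean was -0.95 ± 0.17 (SD, n = 4; limma adjusted p = 4.84e-05).

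Row 38804, with the most positive turned ratio, was less even between the dyes. It had deposited values of 1.13 and 1.20 on replicates 1 and 2, and -0.70 and -0.60 on replicates 3 and 4. The Cy5 arrays thus lay farther from 0 than the Cy3 arrays. Its turned mean was 0.91 ± 0.30 (SD, n = 4; limma adjusted p = 4.38e-05), and it also passed as deposited, at 0.26 (limma adjusted p = 0.0108).

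Row 18226 had deposited values of 1.15 and 1.08 on replicates 1 and 2, and -0.78 and -0.58 on replicates 3 and 4. As in row 38804, the Cy5 arrays were the farther from 0. The turned mean was 0.90 ± 0.26 (SD, n = 4; limma adjusted p = 4.4e-05), and as deposited the row passed at 0.21 (limma adjusted p = 0.0419). With ordinary least squares the adjusted p of these 4 rows was between 0.23 and 0.238, which ends each call. For a single row, an exact sign permutation over 4 arrays cannot give a two-sided p below 0.125.

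As deposited, 751 rows differed from 0, or 1.81% of the rows tested (same limma fit and threshold), 403 positive (0.969%) and 348 negative (0.837%). Their sizes had a median of 0.27 (log2 scale), or 1.203-fold. Among them 42 positive and 19 negative ratios exceeded 0.5 in size, and the 7 over 1 were positive. Of the 689 called rows with 4 values, 562 (81.6%) had one sign on all 4 arrays, which the call itself favours here too.

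This count depended more on the settings than the other. Without the dye term 34 rows passed. Without WT replicates 1 or 2 the counts were 296 and 273 (0.828% and 0.698% of the rows then tested), whereas without WT replicate 3 it was 1643 (4.64%). With ordinary least squares 0 rows passed (smallest adjusted p = 0.257), and 3142 had an unadjusted p under 0.05.

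The highest ratio as deposited was that of row 42029. Its log2 values were 2.47 and 2.06 on replicates 1 and 2, and 1.31 and 1.36 on replicates 3 and 4. All 4 arrays were positive, the Cy5 arrays more so than the Cy3 arrays. The mean was 1.80 ± 0.56 (SD, n = 4; limma adjusted p = 3.64e-06), a 3.48-fold difference, and the row also passed with turned ratios, at 0.46 (limma adjusted p = 0.00151). Without the dye term, when the gap between the dyes counts as spread, its limma adjusted p was 0.108, which ends the call.

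Row 18866 had values of 1.62 and 1.56 on replicates 1 and 2, and 1.92 and 1.95 on replicates 3 and 4. Here the Cy3 arrays were the higher, by much less than the distance of all 4 from 0. The mean was 1.76 ± 0.20 (SD, n = 4; limma adjusted p = 1.22e-07), a 3.39-fold difference, and with turned ratios the row passed with the opposite sign, at -0.17 (limma adjusted p = 0.0116).

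The most negative ratio as deposited was that of row 27203, with -0.63 and -0.88 on replicates 1 and 2 and -1.097 and -0.89 on replicates 3 and 4. Arrays of both dyes were negative, the Cy3 arrays slightly more so. The mean was -0.87 ± 0.19 (SD, n = 4; limma adjusted p = 8.21e-05).

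In row 29656 the 4 arrays lay closest together among the rows named here, at -0.65 and -0.82 on replicates 1 and 2 and -0.75 and -0.80 on replicates 3 and 4. Here the values of the dyes overlapped. The mean was -0.75 ± 0.07 (SD, n = 4; limma adjusted p = 4.76e-05). With ordinary least squares the adjusted p of these 4 rows was between 0.303 and 0.549.

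**Figure D2:**
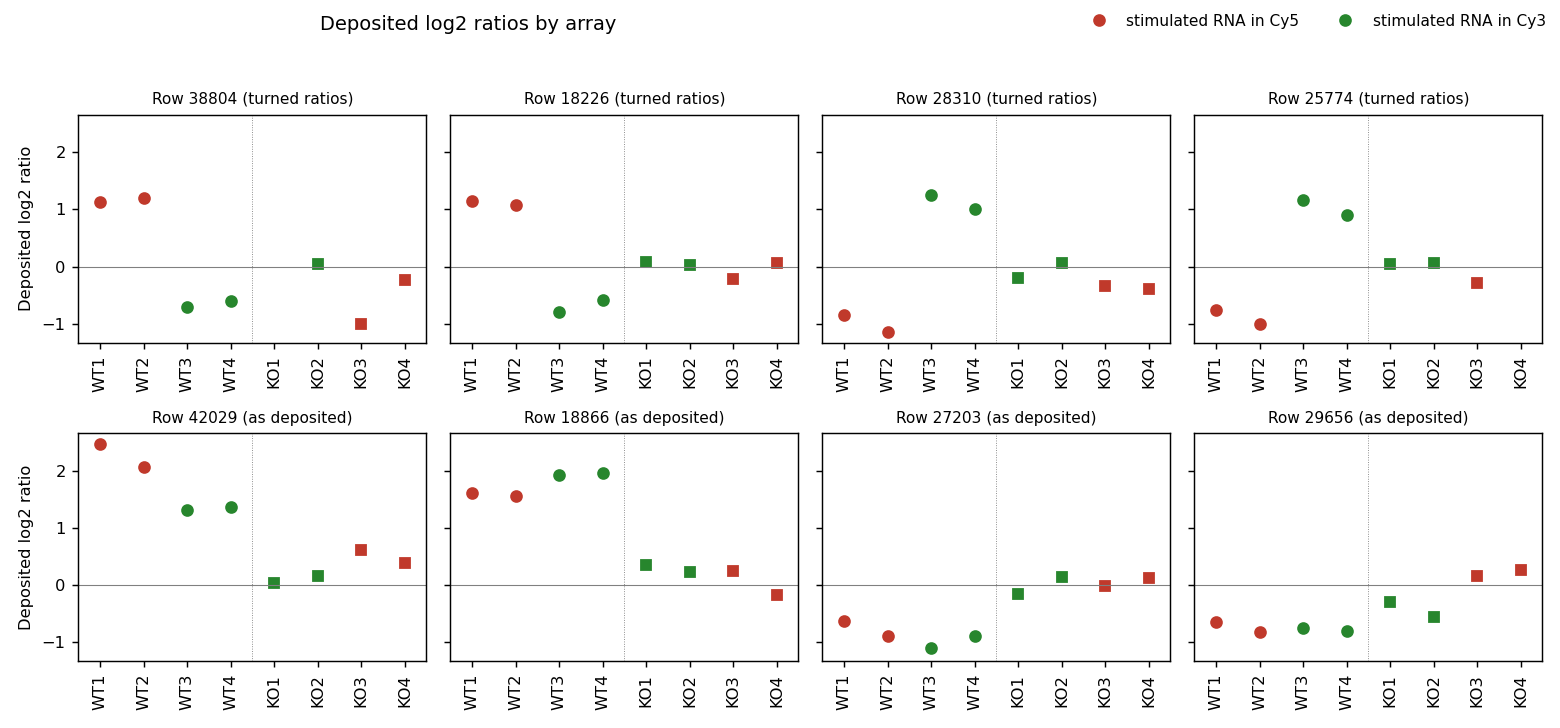
Deposited log2 ratio (y axis) on each array (x axis; WT1 to WT4 as circles, KO1 to KO4 as squares) for the rows with the most positive and most negative called ratio in each reading, coloured by the dye of the stimulated RNA. By the choice of rows, the WT values change sign between the dyes in the upper panels. In the lower panels, also by choice, all 4 WT values of a row have one sign, and they go from -1.097 to 2.47. An absent square is a missing value.

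The threshold lay at small ratios. With turned ratios the last row inside was row 6182, at -0.12 (SE 0.0347; limma adjusted p = 0.049979). The first outside was row 22809, with 0.13 (SE 0.0381; limma adjusted p = 0.050026). As deposited, row 19642 was just inside at 0.18 (SE 0.0376; limma adjusted p = 0.049453) and row 42895 just outside at 0.22 (SE 0.0458; limma adjusted p = 0.050045).

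Both readings come from one fit with one spread per row, so a row can pass in both. This was so for 283 rows, 4.84% of the rows called with turned ratios and 37.7% of those called as deposited. In most of them the ratio lay mainly on the arrays of one dye. The median size of the pair mean was 0.50 on the dye pair where it was larger and 0.082 on the other, and in 262 of the 283 the larger was at least 2 times the smaller. The named rows 42029, 18866, 38804 and 18226 were exceptions, with large ratios on both pairs. In rows 38804 and 18226 the pairs had opposite signs. The larger ratio was on replicates 1 and 2 in 143 rows and on replicates 3 and 4 in 140. The pair means are the sum and the difference of a row's ratios in the 2 readings. Both of these had to pass, so the choice of rows itself favours pairs of unequal size.

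Among rows with 4 values, those with a large ratio on one dye pair were then read on the other pair, whose values had no part in the choice. On replicates 1 and 2, 110 rows had a deposited value below -0.5 on both. Of these, 95 had the opposite sign on both replicates 3 and 4, and 12 had the same sign on both. Rows over 0.5 on both replicates 1 and 2 divided more evenly. Among 97 of them, 45 had the opposite sign on both other arrays and 41 the same sign.

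The choice was also made the other way round. Of 119 rows over 0.5 on both replicates 3 and 4, 71 had the opposite sign on both replicates 1 and 2 and 43 the same sign. Of 37 rows below -0.5 there, 17 had the opposite sign and 16 the same. Among the few rows over 1, the same sign was the more frequent. It was found in 6 of 11 rows chosen on replicates 1 and 2, with 4 opposite, and in 6 of 7 chosen on replicates 3 and 4, with 1 opposite. None of these rows was below -1 on both arrays of a dye pair. The choices overlap, so their counts are not separate. Rows 42029 and 18866, for example, were over 1 on all 4 WT arrays.

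Many rows carried exactly the same value as other rows of their array. On the WT arrays, between 69.8% and 73.6% of values were shared, by up to 831 rows. Which rows shared values was alike from array to array, with a Spearman rho of 0.862 to 0.889 between WT arrays and 0.697 to 0.767 when a WT array was set against a KO array, described over rows. Channel intensities were not used here, so what sets this property of a row was not tested.

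To see where the WT calls lay, the tested rows were put in 8 classes of about 5200 rows by how many rows shared their value on the KO arrays, which had no part in the WT fit. In class 1, where the median value was shared with no other row (median of 1 row per value), 34.2% of rows were called with turned ratios and 5.15% as deposited. In class 4, with a median of 81 rows on one value, the shares were 11.0% and 0.942%. In class 8, with a median of 454, they were 2.73% and 0.385%. The median standard error was alike in the classes, between 0.0384 and 0.0405. These errors come largely from limma's pooling of the spread over all rows, so they cannot show whether the spread differs between classes. The median size of the turned ratio was 0.105 in class 1 and 0.0335 in class 8.

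The correlation between WT arrays was also nearer 0 in the classes with many shared values, though not in strict order. For arrays of the same dye the mean Pearson r was 0.684 in class 1, 0.686 in class 2, 0.523 in class 4 and 0.247 in class 8. For opposite dyes it was -0.377 in class 1, -0.344 in class 2, -0.326 in class 4, -0.203 in class 5 and -0.169 in class 8. Rows without a WT value tended to lie on KO values shared by more rows. Over rows with a KO value, the median number of rows per value was 208.5 without a value on WT replicate 1 and 124 with one. It was 209 and 110 on replicate 2, 182 and 130 on replicate 3, and 188 and 127.5 on replicate 4. Of the rows with no value on WT replicate 2, 2.42% had unshared values on KO arrays, against 14.8% of the rows it measured. On replicate 1 these shares were 3.68% and 13.6%, on replicate 4 they were 6.91% and 13.2%, and on replicate 3 they were 11.3% and 12.9%. Rows with no value on any KO array stay in these totals and do not count as unshared, which lowers the shares by an unknown amount.

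**Figure D3:**
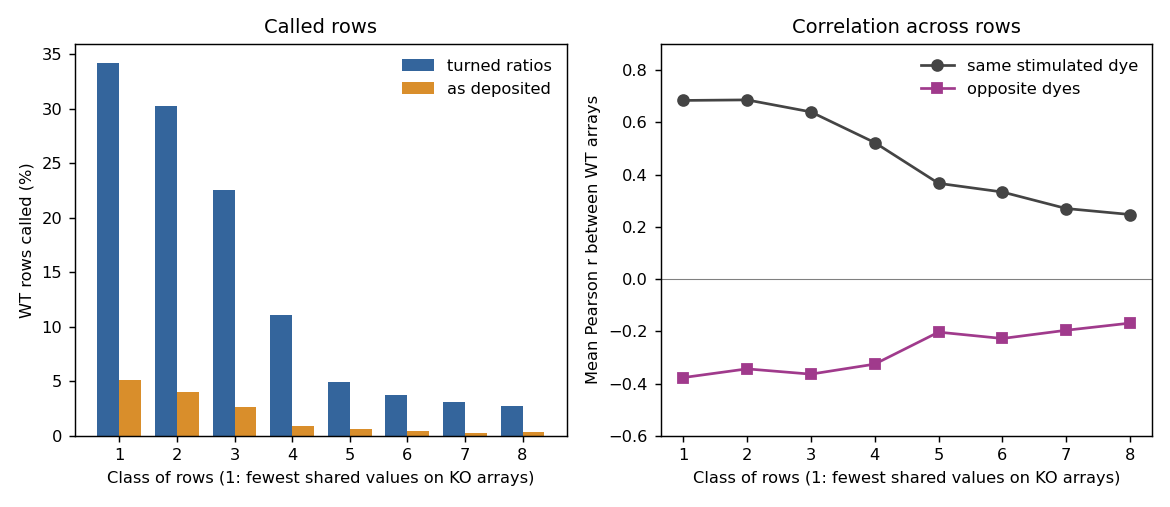
Left, share of WT rows called (%) in each of 8 classes of rows, from the fewest to the most rows sharing a value on KO arrays, in both readings. Right, mean Pearson r across rows between WT arrays of the same stimulated dye (2 pairs) and of opposite dyes (4 pairs). The share called with turned ratios goes from 34.2% in class 1 to 2.73% in class 8, and the correlations lie nearer 0 in classes 5 to 8 than in classes 1 to 4.

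The WT ratios were last set against those of cells without 5-HT2C, to see whether they differ. No array held both genotypes, and the WT and KO arrays also differ in hybridisation, so genotype and array set cannot be told apart. In a fit over all 8 arrays with a dye term for each genotype, 5016 of 40891 rows (12.3%) differed between WT and KO with turned ratios, 2197 (5.37%) with WT above KO and 2819 (6.89%) with KO above WT (limma contrast, Benjamini-Hochberg). The count was 3328 without KO replicate 3, 3066 without WT replicate 1 and 2917 when WT replicate 2 was left out. As deposited, 106 rows (0.259%) differed, with WT the higher in 78 (0.191%) and KO in 28 (0.0685%). With one dye term for both genotypes this count was 16. It was 38, 62 or 61 without KO replicates 1, 2 or 3, and 57 or 43 without WT replicates 1 or 2.

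In KO, the rows called in WT were centred near 0. Of the 5849 rows called with turned ratios, 5783 had at least 3 KO values. Their median size was 0.21 in WT, and in the sign of the WT call their KO median was -0.0075 (interquartile range -0.105 to 0.080), with 47.8% of the same sign. The difference itself passed in 2851 of them (49.3%). Of the 743 rows called as deposited that had 3 KO values, 61.1% had the same sign in KO, with a KO median of 0.023 against 0.27 in WT. There the difference passed in 91 (12.2%). These rows were chosen on the WT arrays that also enter the difference, so these shares describe them and are no separate support.

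The 8 rows named above were chosen as extremes of WT in one reading, with one sign there on all WT arrays. In that reading each was farther from 0 in WT than in KO. With turned ratios, row 38804 had a KO mean of -0.43 ± 0.51 (SD, n = 3) and a WT minus KO difference of 1.24 (SE 0.15; limma adjusted p = 0.00125). Row 18226 had a KO mean of -0.065 ± 0.12 (SD, n = 4) and a difference of 0.96 (SE 0.072; limma adjusted p = 0.000121). Row 28310 had a KO mean of -0.15 ± 0.27 (SD, n = 4) and a difference of -0.91 (SE 0.087; limma adjusted p = 0.000272). In all 3 the difference exceeded the spread between replicates of either genotype. The same held for row 25774, with a KO mean of -0.14 ± 0.13 (SD, n = 3) and a difference of -0.78 (SE 0.085; limma adjusted p = 0.000674). Rows 38804 and 25774 each lacked 1 KO value, so the fitted difference, which weighs the dyes equally, is not the difference of the means given.

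As deposited, row 18866 had a KO mean of 0.16 ± 0.23 (SD, n = 4) and a difference of 1.600 (SE 0.083; limma adjusted p = 3.58e-05). Row 42029 had a KO mean of 0.30 ± 0.25 (SD, n = 4) and a difference of 1.504 (SE 0.090; limma adjusted p = 8.9e-05). Neither row's WT values overlapped its KO values. Row 27203 had a KO mean of 0.025 ± 0.14 (SD, n = 4) and a difference of -0.899 (SE 0.086; limma adjusted p = 0.00239). Row 29656 had KO values of -0.30 and -0.55 on replicates 1 and 2 and of 0.16 and 0.26 on replicates 3 and 4, so its KO sign changed with the dye. Its difference was -0.64 (SE 0.068; limma adjusted p = 0.00436).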

How the data were processed

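The authors deposited log ratios of 2-colour arrays, made with limma per the submitters' processing notes. The deposited values were taken as log2, the base that limma uses. For background correction, normalisation, log base and direction, the sources used here give nothing. With a base other than 2 all sizes would scale together, while the tests would stand. RNA was amplified and labelled with a dual-colour Agilent kit, per the labels' protocols. Precision is limited by the number of arrays, with a median standard error of 0.0392 for a WT ratio.

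Rows with at least 3 WT values were fitted on the 4 WT arrays alone (limma 3.58.1, lmFit and eBayes; R 4.3.3), with a constant and a term that changes sign with the dye. The term that changes sign tests the turned ratio and the constant the ratio as deposited. In each reading, the term that is not tested is what is called its dye term. P-values were adjusted by Benjamini-Hochberg over all 41595 rows. On simulated data the fit called more unchanged rows than the threshold aims at. Descriptions were computed with numpy 2.4.6 and pandas 2.3.3 under Python 3.11.15.

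Of the 44290 row numbers, the probe table pairs 33074 with a single gene symbol (1 each), 56 with more than one and leaves out 11160. Numbers were also shifted by up to 1000 and read as ranks. The r between rows of one symbol was between -0.037 and 0.040 for the WT ratio over 2000 shifts and 0.015 for ranks, and for how often values were shared between -0.036 and 0.034. No gene was named, and gene lists and markers were not run. The rows named are the 2 most positive and 2 most negative called rows of each reading with one sign on 4 WT arrays. Rules and lists were chosen with earlier results of these data known. Alternatives were the dye term, centring, scaling, filters, the variance estimate, array weights, fits over 8 arrays and leaving out arrays. A variance trend along shared values was added after seeing the data.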

Additional observations from a re-analysis of the deposited data

Results flagged for a closer look

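Among 24 groups of 4 arrays tested for a single array far from the other 3, 1 was found, where chance at 1 in 20 gives 1.2. This was KO replicate 1, on which 10843 values were missing, while the other 3 KO arrays lacked 473 to 1608. The WT arrays held no such case.

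Of 40891 rows tested, the WT and KO ratios differed in 5016 (12.3%) with turned ratios and in 106 (0.259%) as deposited (limma contrast, Benjamini-Hochberg). The WT minus KO differences of the rows named, each past that threshold, were, with turned ratios, 1.24 and 0.96 for rows 38804 and 18226 and -0.91 and -0.78 for rows 28310 and 25774. For rows 42029 and 18866 as deposited the differences were 1.504 and 1.600, and for rows 27203 and 29656 they were -0.899 and -0.64. All were chosen as extremes of WT on arrays that also enter the difference, so their passing is no separate support.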

How the results depend on the processing

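For WT with turned ratios (5849 rows), the count was 3456 without a dye term, 0 with ordinary least squares and 2693 to 5972 on leaving out a WT array. For WT as deposited (751 rows, 1.81% of those tested), it was 34 without a dye term and 0 with ordinary least squares. It was 91 with all 8 arrays and a common dye term, and 273 to 1643 on leaving out a WT array. Over the 12592 rows sharing a value with at most 1 other row it was 463, a higher share (3.68%). Fewer rows were tested in the filtered and left-out settings, and the cause of the changes was not tested. Under the other alternatives both counts stayed within 1.5 times, and the variance trend added after seeing the data gave 5637 and 897 rows, of which 5086 and 685 were among those of the fit above. The 8 rows named had the same sign wherever they were tested, but being chosen for one sign on all 4 WT arrays nearly fixes this. All 8 calls ended with ordinary least squares, and 1 ended without a dye term. For WT minus KO with turned ratios (5016 rows) leaving out an array gave 2917 to 4427. As deposited (106 rows) it gave 38 to 146, and a common dye term gave 16. With replicate number as a block the counts were 4215 and 216. Whether the numbers pair the arrays could not be settled. Deviations of turned ratios correlated between -0.064 and -0.011 for same-numbered WT and KO arrays, and between -0.052 and 0.072 for other numbers. Same-numbered arrays always had opposite dyes, and turning changes the sign on only the Cy3 array, so these r cannot decide it. Without channel intensities, the limits set by signal over background were not analysed here.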

Other observations

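The order of the rows holds some structure. On WT replicates 1 and 2, rows without a value recurred at a spacing of 7 rows (r of 0.173 and 0.0768 between rows that far apart) and of 42 rows (0.189 and 0.0781), whereas on replicates 3 and 4 the r at these spacings was between -0.0041 and 0.0071. The deposited values of KO replicate 1 correlated weakly at a spacing of 215 rows (r of 0.045), the highest r of that array over spacings up to 1000. On the other KO arrays r was between 0.018 and 0.035 there and other spacings gave higher values. At that spacing, the numbers that the probe table does not list had an r of 0.0037, and at a spacing of 170 they had 0.033. These r are small and are given as descriptions.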
